A study of Mus musculus with 6 samples.

Results

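Wide H3K4me1 peaks listed only after lipopolysaccharide (LPS) were examined in mouse bone marrow-derived macrophages (BMDMs). A region was taken when its peak in the LPS list lay on chromosomes 1 to 19, was at least 400 bp wide, and had no peak of the PBS list within 1000 bp of either end. Members were thus chosen by the listed H3K4me1 peaks and their width. This rule selected 2574 of the 73049 peaks in the LPS H3K4me1 list, or 8.06% of the 31917 wide peaks on those chromosomes. They are called LPS-only wide peaks here. The same rule with the lists exchanged selected 923 of 26578 wide PBS peaks (3.47%), which are called PBS-only wide peaks. The 26801 wide LPS peaks that shared at least 1 bp with a PBS peak are called shared wide peaks. The rule used the presence of a peak in both lists and the width in 1 of them, so that the counts above, the distances to PBS peaks and the widths are descriptions and not findings.

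The cells were grown from the bone marrow of C57BL/6 mice, which were young adult males according to the methods, and no gene was deleted in them. They were treated for 1 h with LPS, a component of the outer membrane of gram-negative bacteria that activates Toll-like receptor 4, or for 1 h with PBS as the unstimulated control. CUT&RUN, in which an antibody directs a nuclease to chromatin and the released fragments are sequenced, gave 1 library each for H3K4me1, H3K27ac and control IgG under each treatment. Peak lists of the 4 histone libraries were used, and the 2 IgG libraries were left aside. There were no replicates, so that treatment and library cannot be told apart, no difference between treatments was tested, and intervals are 95% Wilson intervals that cover counting error only.

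H3K4me1 is monomethylation of lysine on the tail of histone H3, which the MLL3 and MLL4 methyltransferases place at enhancers. It often marks enhancers before they are used, and it also flanks active promoters, where trimethylation of the same residue takes over close to the start site. H3K27ac, placed by the acetyltransferases p300 and CBP, is found at enhancers and promoters in use. In macrophages the factor PU.1 opens most enhancers, and inflammatory stimuli can add H3K4me1 to further sites.

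Estimated depth was similar in both H3K4me1 libraries, but the lists differed in size. The PBS list held 64758 peaks over 31.1 Mb and the LPS list 73049 over 38.7 Mb, so that LPS peaks had fewer possible counterparts. With lists cut to equal size, the ratio of LPS-only to PBS-only wide peaks was 1.72 in place of 2.79. Depth was estimated from the peak values at about 7000000 fragments under LPS and 6870000 under PBS. The median was 17 fragments at the summit, the point of highest signal, in each list. In both lists a peak had at least 8 fragments at its summit, so that a region without a listed peak can still hold fragments. The H3K27ac lists were short and unequal, with 4200 peaks under LPS and 52 under PBS. Depth estimated in the same way was about 5660000 fragments for LPS H3K27ac and 7210000 for PBS H3K27ac. By these estimates, of which that for PBS H3K27ac rests on 52 peaks alone, the shorter list came from the deeper library. Why it was short was not tested. Macrophage genes checked the cell type, as 29 of 30 had an LPS H3K4me1 peak and 27 of 30 a PBS peak within 10 kb of a transcription start site (TSS), against 7 and 3 of 30 genes of other tissues.

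Sequences around the summits show the contrast that runs through these regions. Many LPS-only wide peaks at promoters sat on CpG-dense DNA, though others did not, and away from promoters few did. The first pair below are the 2 promoter members with the highest peak significance among those that hold many CpGs and whose window reached no untranslated exon. They were chosen after their values were seen. The next pair lay under 2 of the 3 strongest LPS H3K27ac peaks at members, and the last 3 were the members with the highest peak significance. Each is the plus strand of GRCm38.p6 (RefSeq) over 201 bases centred on the summit, with CG dinucleotides in capitals.
Ifrd1 promoter, chr12:40223322-40223522: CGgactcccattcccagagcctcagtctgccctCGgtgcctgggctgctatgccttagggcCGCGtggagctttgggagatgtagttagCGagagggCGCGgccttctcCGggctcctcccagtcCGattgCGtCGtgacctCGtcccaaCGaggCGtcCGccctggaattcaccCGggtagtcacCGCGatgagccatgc
Map3k3 promoter, chr11:106084197-106084397: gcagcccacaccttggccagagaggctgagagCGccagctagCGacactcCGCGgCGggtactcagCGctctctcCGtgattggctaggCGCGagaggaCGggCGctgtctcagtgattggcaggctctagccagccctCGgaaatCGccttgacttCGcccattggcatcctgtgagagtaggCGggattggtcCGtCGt
Irgm2 promoter, chr11:58214643-58214843: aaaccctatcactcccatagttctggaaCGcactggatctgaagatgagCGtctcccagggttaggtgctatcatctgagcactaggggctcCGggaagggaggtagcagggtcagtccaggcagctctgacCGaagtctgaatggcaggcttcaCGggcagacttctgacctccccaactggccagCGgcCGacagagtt
Ctsb intron, chr14:63130505-63130705: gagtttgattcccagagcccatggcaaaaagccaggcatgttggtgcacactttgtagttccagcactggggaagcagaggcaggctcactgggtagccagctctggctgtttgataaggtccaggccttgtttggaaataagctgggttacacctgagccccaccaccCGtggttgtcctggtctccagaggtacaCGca
Dnajc16 intron, chr4:141766665-141766865: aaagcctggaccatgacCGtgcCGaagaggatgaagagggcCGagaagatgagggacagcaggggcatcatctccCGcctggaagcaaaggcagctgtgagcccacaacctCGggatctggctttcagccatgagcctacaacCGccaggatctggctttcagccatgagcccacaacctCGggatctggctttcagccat
Ptpn18 intron, chr1:34468293-34468493: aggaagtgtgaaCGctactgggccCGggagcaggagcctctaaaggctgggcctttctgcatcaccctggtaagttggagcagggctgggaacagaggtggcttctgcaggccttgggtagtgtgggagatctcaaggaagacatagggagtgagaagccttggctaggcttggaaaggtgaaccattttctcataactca
Gm35533 exon, chr10:100138744-100138944: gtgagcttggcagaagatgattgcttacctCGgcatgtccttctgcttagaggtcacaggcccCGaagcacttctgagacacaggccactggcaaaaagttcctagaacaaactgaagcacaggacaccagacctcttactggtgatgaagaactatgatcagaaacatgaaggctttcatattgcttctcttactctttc
The Ifrd1 and Map3k3 windows held 18 and 17 CpGs and the Irgm2 window 7, while the windows in Ctsb, Ptpn18 and Gm35533 held 2 each. The member in the exon of Gm35533 also lay within 1000 bp of the TSS of the non-coding gene Gm22918 and counts as a CpG-poor promoter member. The window in the intron of Dnajc16 held 7.

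A further pair lay near genes of the LPS response and held a match to a motif that was searched. In the window near Il12b the capitals mark a match to the NF-kB motif, read on the minus strand. In the window in Oasl1 they mark 2 matches to the AP-1 motif TGANTCA.
Il12b upstream, chr11:44399030-44399230: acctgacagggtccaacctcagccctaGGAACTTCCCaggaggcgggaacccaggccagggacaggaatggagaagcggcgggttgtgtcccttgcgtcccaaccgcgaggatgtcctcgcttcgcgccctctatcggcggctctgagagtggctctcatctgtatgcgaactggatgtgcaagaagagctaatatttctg
Oasl1 intron, chr5:114926378-114926578: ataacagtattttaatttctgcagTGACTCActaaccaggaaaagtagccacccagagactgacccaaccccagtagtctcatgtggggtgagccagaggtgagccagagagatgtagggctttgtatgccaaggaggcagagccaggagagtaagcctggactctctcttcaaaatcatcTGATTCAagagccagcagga
The Il12b window also held 12 CpGs, and the Oasl1 window held 0.

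Most LPS-only wide peaks were only moderately wide and of middling strength. Their median width was 514.5 bp (quartiles 448 and 627 bp, highest 1679 bp), against 760 bp for shared wide peaks. The median −log10 q of the peak caller was 5.91 (quartiles 4.33 and 7.82, range 2.08 to 26.3), and the median fold enrichment over local background was 6.26. A median of 16 fragments lay under their summits, compared with 23 at shared wide peaks and 16 at PBS-only wide peaks. By width, 1171 members spanned 400 to under 500 bp, 970 spanned 500 to under 700 bp, 352 spanned 700 to under 1000 bp and 81 were wider. The median distance to the nearest PBS peak was 5589 bp. It was over 1000 and up to 2000 bp for 576 members, over 20000 and up to 100000 bp for 486, and more than 100000 bp for 85.

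The share of peaks without a near counterpart fell with width in both lists. Of LPS peaks of 400 to under 500 bp, 16.8% had no PBS peak within 1000 bp, and of those of 1000 to under 2000 bp 1.16% had none. In the PBS list the corresponding shares were 7.27% and 0.335%. None of the 1716 LPS peaks or 806 PBS peaks of 2000 bp or more lacked a counterpart. Over all widths, 19.8% of LPS peaks and 11.1% of PBS peaks lacked one, so that the larger LPS share was present in narrow peaks as well.

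**Figure D1:**
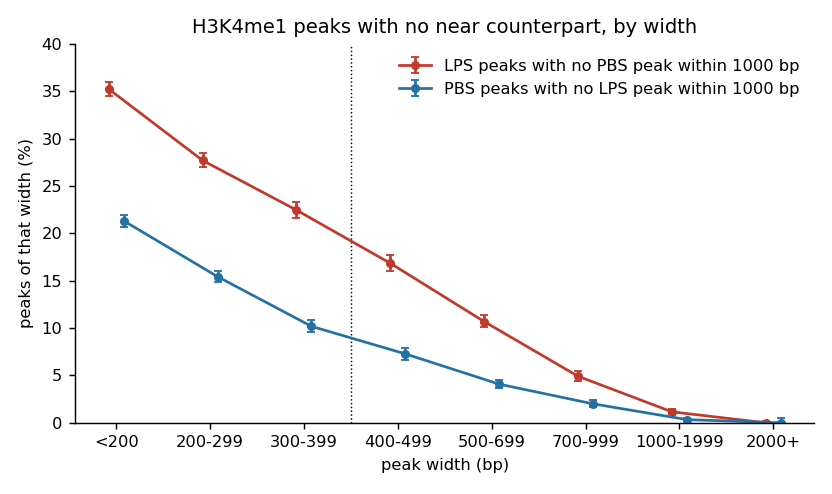
Share of H3K4me1 peaks in each width class (bp) with no peak of the other list within 1000 bp, for the LPS list and the PBS list, on chromosomes 1 to 19. Points are percentages with 95% Wilson intervals, the dotted line marks the 400 bp limit, and at 400 to under 500 bp the share was 16.8% under LPS and 7.27% under PBS.

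Peaks on both sides of the limits of the rule are given as a description. The 3 members nearest above the width limit were 400 bp wide and lay near Defb30, Ccnd3 and Fam170a, with −log10 q of 9.44, 7.84 and 7.82. The 3 peaks nearest below it were 399 bp wide and lay near Fam111a, Tet2 and Crip1, with 11.99, 9.77 and 6.84. The members nearest beyond the distance limit lay 1001, 1004 and 1005 bp from a PBS peak, near Rala, Setd2 and Hmga2. Wide peaks near Incenp, Nipbl and Banp had a PBS peak 999 bp away and were left out.

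LPS-only wide peaks were found at promoters more often than other wide peaks. A promoter peak was one that lay wholly or partly within 1000 bp of a TSS, and 696 members did so (27.04%, 25.4 to 28.8%), against 14.6% of all 71661 LPS peaks. The share was 11.1% (10.7 to 11.5%) for shared wide peaks and 17.7% (15.3 to 20.3%) for PBS-only wide peaks, and none of these intervals overlapped that of the members. Narrow LPS peaks without a PBS peak nearby had a promoter share of 24.9% (24.1 to 25.7%), close to that of the wide members. Of the other members 1161 (45.1%) had their summit in an intron, 602 (23.4%) between genes and 115 (4.47%) in an exon. Introns held 60.8% of shared wide peaks.

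**Figure D2:**
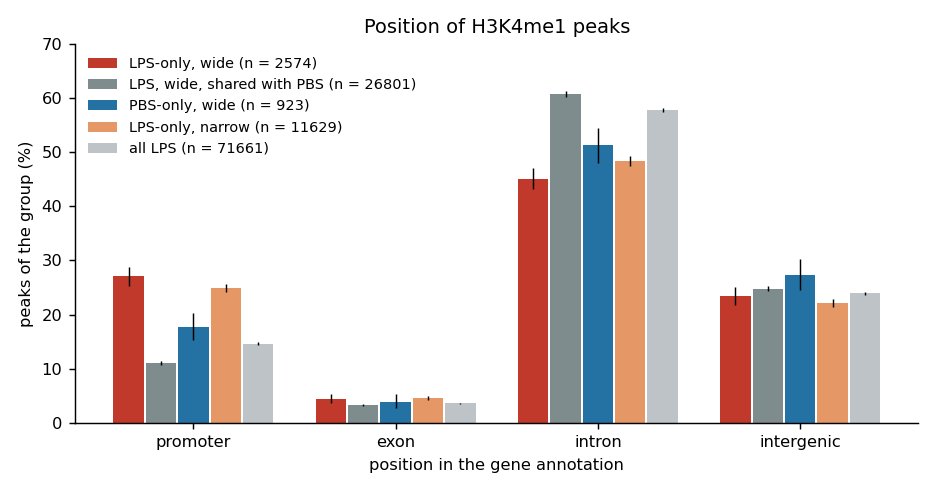
Percentage of H3K4me1 peaks of each group at promoters, in exons, in introns and between genes, with 95% Wilson intervals. LPS-only wide peaks had 27.04% at promoters and 45.1% in introns, against 11.1% and 60.8% for the wide LPS peaks shared with PBS.

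Peak width, strength and crowding moved with group membership, and the promoter share was therefore also read within bands of each. From 400 to under 500 bp wide, 26.6% of members and 11.01% of shared wide peaks were at promoters, and from 700 to under 1000 bp 29.8% and 10.9%. Among members with −log10 q under 5, from 5 to under 10, and of 10 or more, 28.8%, 25.3% and 29.4% were at promoters. Shared wide peaks in the same bands had 12.1%, 11.6% and 10.3%. LPS-only wide peaks lay farther from the next LPS peak, at a median of 2096.5 bp against 363 bp. Among peaks whose next LPS peak lay within 1000 bp, 28.5% of 901 members and 10.7% of 19190 shared wide peaks were at promoters. Among those with none within 20000 bp the shares were 27.2% of 342 members and 156 of 975 shared wide peaks (13.8 to 18.4%). By distance to the nearest PBS peak the share was lowest, 23.9% of 787 members, between 5000 and 20000 bp and highest, 41.2% of 85 members (31.3 to 51.8%), beyond 100000 bp.

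Promoter members belonged largely to protein-coding genes. Of the 696, 588 overlapped the window of a protein-coding TSS, 43 reached the TSSs of 2 or more such genes, and 108 (15.5%) lay at non-coding genes or pseudogenes alone. Of 496 members whose summit lay within 1000 bp of a protein-coding TSS, 248 (45.6 to 54.4%) had it within 200 bp. For shared wide peaks this share was 40.3% of 1232 (37.6 to 43.1%). The 100 bp just upstream of the TSS held 20.0% of the member summits and 14.4% of the shared ones, and the intervals of these 2 values, 16.7 to 23.7% and 12.5 to 16.4%, did not overlap.

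**Figure D3:**
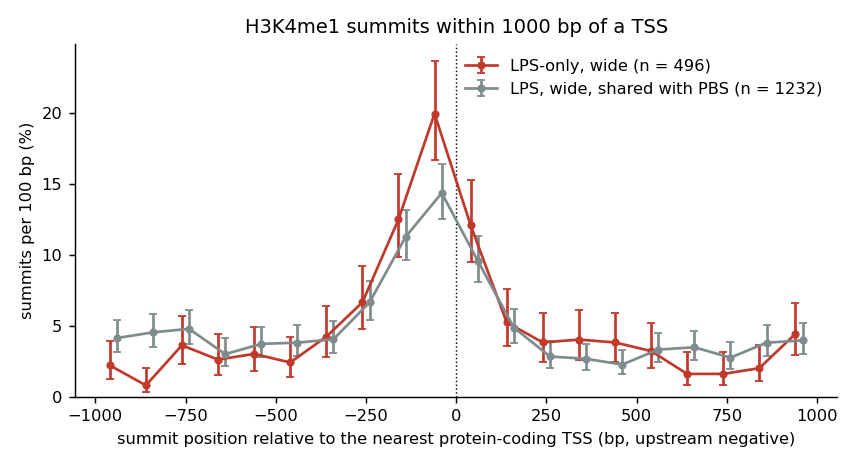
Position of H3K4me1 summits relative to the nearest protein-coding TSS (bp), as the percentage of summits in each 100 bp with 95% Wilson intervals, for 496 LPS-only wide peaks and 1232 wide LPS peaks shared with PBS. The highest value in both groups lies in the 100 bp upstream of the TSS, at 20.0% for LPS-only peaks and 14.4% for shared peaks.

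LPS-only promoter peaks differed in CpG content from the promoter peaks of the other wide groups by more than counting error. CpG islands are stretches rich in unmethylated CpG that form the promoters of most broadly expressed genes, while the promoters of many inducible and tissue-restricted genes lack them. In the 301 bases around the summit, promoter members had a median of 13 CpGs (quartiles 4 and 26) and a median GC content of 57.0%. Promoter peaks among shared wide peaks had 4 CpGs (quartiles 2 and 7) and 50.8% GC, and those among PBS-only wide peaks 5 CpGs and 50.2%. At least 10 CpGs were present at 393 of 696 promoter members (56.5%, 52.8 to 60.1%), at 17.5% of 2974 shared ones (16.1 to 18.9%) and at 48 of 163 PBS-only ones (29.4%, 23.0 to 36.9%). Narrow promoter peaks without a near counterpart had high shares in both lists, 58.4% of 2892 under LPS and 54.7% of 1160 under PBS (51.9 to 57.6%), so that a high share was not limited to LPS or to wide peaks. Wide LPS peaks with a PBS peak nearby but not overlapping took an intermediate place, with 36.1% of 457.

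Away from promoters the members were like other wide peaks in composition. The 1878 distal members had a median of 3 CpGs and 48.2% GC, and the 23827 distal shared wide peaks also had 3 CpGs and 48.2%. At least 10 CpGs were found at 4.79% of distal members (3.92 to 5.85%) and 2.16% of distal shared peaks (1.98 to 2.35%), so that a smaller difference remained. Over all positions the median GC at summits was 49.5% for members (quartiles 45.2 and 54.8%), 48.2% for shared and 46.8% for PBS-only wide peaks. Only 126 members (4.90%) had at least 50% of the window masked as repeats.

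**Figure D4:**
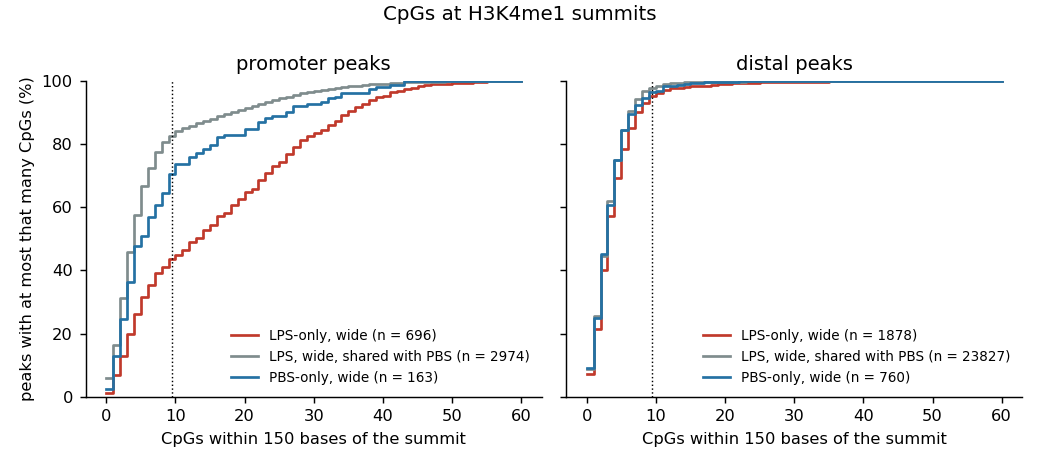
Cumulative percentage of peaks against the number of CpGs in the 301 bases around the summit, for promoter peaks and distal peaks of 3 groups, with a dotted line at the limit of 10 CpGs. The LPS-only promoter curve lies lowest, with 56.5% of its peaks at 10 CpGs or more against 17.5% for shared promoters, while the distal curves lie close together.

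The annotated promoters of the genes concerned gave a second view of this, which did not depend on where the summit lay. RefSeq promoter sequences, which reach from upstream of the start to just beyond it, were matched for 492 of the 612 protein-coding genes with an LPS-only wide peak within 1000 bp of a TSS. They had a median of 24 CpGs (quartiles 17 and 32), and 89.0% (86.0 to 91.5%) held at least 10. For genes with a shared wide peak the median was 19 and the share 70.8% (68.2 to 73.3%) of 1208. For genes with an LPS H3K4me1 peak of any kind these were 22 and 82.6% (81.5 to 83.7%) of 4558. Genes with a PBS-only wide peak had 20.5 and 78.3% (69.5 to 85.1%) of 106, and all protein-coding genes 16 and 62.3% (61.6 to 63.1%) of 15687. The match covered 80.4% of the genes with a member. It covered 79.3, 78.8, 79.1 and 75.5% of the other sets, in the order given. The values of those other sets thus fall short of the 80% coverage required here and are given as partial.

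The strongest members were spread over introns, exons and promoters. The first ranked 284th of the 73049 LPS peaks by −log10 q. It lay at chr4:141766306-141767336 in an intron of Dnajc16, 19634 bp from the TSS of Agmat and 23333 bp from the nearest PBS peak, with a fold enrichment of 16.1, a −log10 q of 26.3 and 44 fragments at the summit. The next, at chr1:34467503-34468787, lay in an intron of Ptpn18, a tyrosine phosphatase gene, 3933 bp from its TSS and 1480 bp from a PBS peak, with a fold enrichment of 15.5 and 40 fragments. The third, at chr10:100138121-100139161 in an exon of the non-coding gene Gm35533, was a promoter member by the TSS of the non-coding gene Gm22918. It was 122205 bp from the nearest protein-coding TSS, that of Kitl, and had 34 fragments. None of the 3 was overlapped by an H3K27ac peak.

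The other 7 of the 10 members with the highest −log10 q had values between 18.4 and 19.8. In gene bodies, members lay in an exon of Noa1 that is coding sequence (chr5:77299426-77300179), and in introns of Vti1a (chr19:55544459-55544902), Tcf4 (chromosome 18, 69654580 to 69656185) and Mier2 (chr10:79546975-79547925). Tcf4 encodes a basic helix-loop-helix factor needed for plasmacytoid dendritic cells, and its member was 1606 bp wide with 38 fragments at the summit. At chr10:43034682-43035539 a member in Sobp overlapped the promoter window of the predicted gene Gm47815. At protein-coding promoters, members lay over the TSS of Ifrd1 (chr12:40223122-40223549) with 31 fragments and of Eml6 (chr11:30025976-30026413) with 33, and the nearest PBS peaks were 2442 and 38917 bp away.

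The 12 protein-coding promoter members of highest −log10 q, a list chosen after values were seen, had no common theme that was tested. They lay at Ifrd1, Eml6, Mum1, Gm28557, Fam3c, Irak1bp1, Fkbp15, Sike1, Map3k3, AU022252, Aktip and Dimt1, with −log10 q of 14.97 to 18.4. Some of their roles are known, such as that of Irak1bp1, which encodes a binding partner of the interleukin-1 receptor kinase IRAK1, with a −log10 q of 17.9, 32 fragments and no PBS peak within 41481 bp. Sike1, a suppressor of the kinase IKK-epsilon in antiviral signalling, had 16.5 and 28 fragments. Map3k3, a MAP kinase kinase kinase that acts upstream of NF-kB and ERK5, had 15.4 and 28 fragments. At Dimt1, which encodes an rRNA methyltransferase, 26 fragments lay at the summit and an LPS H3K27ac peak overlapped the member. Of these 12 members 11 held 18 to 41 CpGs in the 301 bases around the summit, and the member at Gm28557 held 2.

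The members farthest from any PBS peak were also looked up after their values were seen. The farthest, at the promoter of Dsel (chr1:111864815-111865229), was 3605026 bp from the nearest PBS peak and held 21 CpGs around its summit. It had 35 fragments there, but the local background was high as well, and the fold enrichment was 4.83. The next lay near Nrsn1, at 951385 bp, and in an intron of Orc5, a subunit of the origin recognition complex, a member lay 759805 bp from a PBS peak with 14 fragments.

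The 5 widest members varied in strength. Among all members the median −log10 q was higher in wider classes, at 5.24 from 400 to under 500 bp, 5.91 from 500 to under 700 bp, 7.31 from 700 to under 1000 bp and 8.45 above. The widest, 1679 bp at the promoter of Sall3, a zinc finger gene of development (chromosome 18, 80985366 to 80987044), had a −log10 q of 7.87, 28 CpGs around its summit and no PBS peak within 52474 bp. An intronic member 1630 bp wide in Cmas, the enzyme that activates sialic acid, had a −log10 q of 3.76. One of 1621 bp in Blnk, an adaptor of B cell receptor signalling, had 4.62, and one of 1618 bp in Cyth1 had 12.6. The fifth was the Tcf4 member described above, which was also among the 10 strongest.

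Few LPS-only wide peaks were overlapped by a listed H3K27ac peak, and the same was true of LPS H3K4me1 peaks at large. The LPS H3K27ac list held 4200 peaks with a median of 9 fragments at the summit. A member without a listed H3K27ac peak can thus still carry the mark. An LPS H3K27ac peak overlapped 37 of 2574 members (1.44%, 1.04 to 1.97%), against 1.86% of all LPS H3K4me1 peaks, 3.27% of shared wide peaks (3.06 to 3.49%) and 1.41% of PBS-only wide peaks (0.825 to 2.39%). The share was thus below that of shared wide peaks, and a difference from PBS-only wide peaks or from all peaks was not detectable with these counts. Width moved with this result, as members were narrower than shared wide peaks, and within each width class the intervals of both groups overlapped. From 400 to under 500 bp, 1.79% of 1171 members (1.18 to 2.73%) and 1.83% of 4634 shared wide peaks (1.49 to 2.26%) were overlapped. From 500 to under 700 bp the shares were 1.13% (0.634 to 2.02%) and 2.02% (1.72 to 2.38%). From 700 to under 1000 bp they were 1.14% of 352 members (0.443 to 2.88%) and 3.08% (2.69 to 3.53%). At 1000 bp or more they were 1.23% of 81 members (0.218 to 6.67%) and 5.23% (4.78 to 5.73%). In these wider classes only 4 and 1 members were overlapped, so that their intervals are wide and overlap says little. Crowding moved with it too, since with the next LPS peak within 1000 bp the shares were 1.89% (1.18 to 3.001%) and 3.91% (3.64 to 4.19%), and at larger distances the intervals overlapped, as in 1.77% (1.06 to 2.95%) and 1.98% (1.62 to 2.44%) from 1000 to 5000 bp. Within 1000 bp of an LPS H3K27ac peak lay 98 members (3.81%) and 5.98% of shared wide peaks. In distal regions, 16 of 1878 members (0.852%, 0.525 to 1.38%) and 3.22% of shared peaks (3.01 to 3.46%) were overlapped. At promoters the shares were 3.02% (1.98 to 4.57%) and 3.63% (3.02 to 4.37%), and their intervals overlapped. None of the 52 PBS H3K27ac peaks overlapped a member, which allows a share of up to 0.117% when 3 counts are taken as the limit of a count of 0. Only 14 shared wide peaks were overlapped by that short list, so that the 0 says little. The strength of H3K4me1 peaks differed between the groups as well, and its part in these shares was not tested. Among peaks of −log10 q from 5 to under 10, 1.47% of members (0.955 to 2.26%) and 2.74% of shared wide peaks (2.46 to 3.06%) were overlapped, and under 5 the values were 1.32% (0.759 to 2.30%) and 2.28% (1.85 to 2.81%), with overlapping intervals. At 10 or more they were 1.61% (0.691 to 3.72%) and 4.11% (3.76 to 4.48%).

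Of the 37 members with H3K27ac, 21 lay at promoters, 10 in introns and 6 between genes. Their H3K27ac peaks had a median −log10 q of 5.28 (range 2.36 to 16.02), compared with 3.75 over the whole LPS H3K27ac list. The strongest lay in an intron of Ctsb, which encodes the lysosomal protease cathepsin B, 7852 bp downstream of its TSS. There the H3K4me1 member at chr14:63130314-63131100 had 15 fragments at its summit, and the H3K27ac peak ranked 17th of its list with a fold enrichment of 12.01 and 19 fragments. The next lay at the promoter of the hyaluronidase gene Hyal2 (chr9:107568894-107569336), with a −log10 q of 12.9 for H3K27ac. At the promoter of Irgm2, an interferon-inducible GTPase gene that acts on vacuoles holding pathogens (chr11:58214448-58214861), the H3K4me1 member had 18 fragments and the H3K27ac peak a −log10 q of 10.4.

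The other 7 of the 10 members under the strongest H3K27ac peaks had H3K27ac −log10 q values of 7.18 to 9.52. Promoters among them were those of the RNA-binding protein gene Raly, of B9d2, which acts in the transition zone of cilia, and of the mitochondrial dehydrogenase gene Aldh4a1. Intronic members lay in Creb5, a CREB-family factor, in Ptpn6, which encodes the inhibitory phosphatase SHP-1 of blood cells, and in Itsn2, an endocytic scaffold. The tenth lay between genes, 1647 bp from the TSS of Pigv. At the gene level, 74 of the 612 protein-coding genes with a member within 1000 bp of a TSS (12.1%) also had an LPS H3K27ac peak there, against 10.1% of genes with an LPS H3K4me1 peak of any kind at the TSS and 5.82% of all protein-coding genes.

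Motifs of macrophage and LPS-activated factors were compared with LPS peaks at large and with shared wide peaks. Each was searched on both strands of the 301 bases around the summit and counted once per window, and matches to different motifs may overlap. AP-1 (TGANTCA) was found at 14.1% of members (12.8 to 15.5%) and 14.0% of all LPS peaks. PU.1 (GAGGAAGT) was found at 5.98% (5.13 to 6.97%) and 5.91%, but at 7.56% of shared wide peaks (7.25 to 7.89%). Further shares were 4.04% and 4.03% for the interferon-stimulated response element. C/EBP (TTGCNNAA) was present at 11.8% (10.6 to 13.1%) against 13.3%. The NF-kB motif was present at 45 members, or 1.75% (1.31 to 2.33%), and at 1.48% of all LPS peaks. CREB/ATF (TGACGT) was present at 4.55% (3.81 to 5.42%) and 3.69%, and the CTCF core (CCACNAGG) at 6.14% (5.27 to 7.13%) and 5.29%. The letters CGCG were more frequent, at 18.3% of members (16.8 to 19.8%) against 8.70% of all LPS peaks and 5.25% of shared wide peaks. They were present at 50.6% of promoter members, 16.6% of shared promoter peaks and 6.28% of distal members. Promoter members differed from shared promoter peaks beyond counting error in 4 further motifs. The windows also differed in composition, with a median GC of 57.0% against 50.8% and 13 against 4 CpGs. The part of composition in the motif shares was not tested. AP-1 was found at 7.47% (5.74 to 9.67%) against 11.6% (10.5 to 12.8%), PU.1 at 3.02% (1.98 to 4.57%) against 6.29% (5.47 to 7.22%) and C/EBP at 8.48% (6.63 to 10.8%) against 12.2% (11.1 to 13.5%). CREB/ATF was more frequent in promoter members, at 7.33% (5.62 to 9.51%) against 4.001% (3.35 to 4.77%). Narrow LPS promoter peaks without a near counterpart had 6.98% AP-1, 2.73% PU.1, 9.54% C/EBP, 8.06% CREB/ATF and 49.97% CGCG. Narrow PBS ones had 7.76, 3.45, 8.88, 6.38 and 45.7%. These differences from shared promoter peaks were thus not limited to LPS or to wide peaks. PBS-only wide promoter peaks had 8.59, 5.52, 13.5, 9.82 and 28.8%, in the same order. In distal members AP-1 was found at 16.6% (14.9 to 18.3%) and PU.1 at 7.08% (6.01 to 8.33%), close to the 16.1% and 7.72% of distal shared peaks.

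LPS-only wide peaks near genes of the LPS response were counted in lists of known members. Among 20780 protein-coding genes on chromosomes 1 to 19, 7.64% had a member within 10 kb of a TSS. The share was 5 of 60 for primary response genes, which are transcribed within the first hour without new protein synthesis (8.33%, 3.61 to 18.1%), and 6 of 38 for late and interferon response genes (15.8%, 7.44 to 30.4%). It was 4 of 44 for NF-kB and Toll-like receptor signalling genes (9.09%, 3.59 to 21.2%) and 5 of 30 for macrophage identity genes (16.7%, 7.34 to 33.6%). No gene of the list of other tissues had one, and a count of 0 of 30 allows up to 10.0% by the same limit of 3 counts, or 11.4% by the Wilson interval. Within 10 kb the interval of every list included the share of all genes, and no list was tested. Within 50 kb a member lay near 20.3% of all genes. The intervals of late and interferon response genes (34.2%, 21.2 to 50.1%) and macrophage identity genes (36.7%, 21.9 to 54.5%) lay above that share. Shared wide peaks were also more frequent near both lists within 50 kb, at 78.9% and 96.7% against 52.3% of all genes.

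Primary response genes with a member were the following. Dusp2, which encodes a MAP kinase phosphatase, had one of 910 bp 604 bp upstream of the TSS, with a −log10 q of 7.70 and 20 fragments. Klf2, a Kruppel-like factor, had one 6061 bp downstream with 23 fragments. Dusp1, another MAP kinase phosphatase, had one 7745 bp upstream with 12 fragments, and there the nearest PBS peak lay 25030 bp away. Irf1, the interferon regulatory factor, had a member of 1007 bp 2796 bp downstream of the TSS with 13 fragments. The member 1224 bp upstream of Mcl1, an inhibitor of apoptosis, had 12 fragments and was the only member of the 5 that an LPS H3K27ac peak overlapped.

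Late and interferon response genes with a member included a cytokine subunit, antiviral genes and a transcription factor. Il12b, the p40 subunit of interleukin-12 and interleukin-23, had a member 702 bp upstream of its TSS, with a −log10 q of 8.46, 26 fragments, 16 CpGs and no PBS peak within 8177 bp. Irf8, a transcription factor of myeloid development, had one of 971 bp 8756 bp downstream with 17 fragments. Among antiviral genes, members lay 2907 bp downstream of the TSS of Oasl1, 8923 bp upstream of Oas3 and 9342 bp upstream of the ubiquitin-like modifier gene Isg15. None of these 5 members was overlapped by an LPS H3K27ac peak.

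Signalling genes with a member encode a receptor, adaptors and a ubiquitin ligase. At Tirap, the adaptor that carries signals from Toll-like receptors 2 and 4 to MyD88, a member of 404 bp lay over the TSS with a −log10 q of 11.6, 23 fragments and 19 CpGs. At Tlr3, the receptor for double-stranded RNA, a member of 606 bp also lay over a TSS, with 20 fragments. Traf3, a ubiquitin ligase of interferon induction, had one 828 bp upstream with 23 fragments, and Ticam1, which encodes the adaptor TRIF of Tlr3 and Tlr4, had one 6995 bp downstream with 17. Macrophage identity genes with a member were Adgre1 (the surface protein F4/80), Lyz2 (lysozyme), the cathepsin genes Ctsd and Ctsb, and Runx1, at 4009 to 7852 bp downstream of a TSS. The Adgre1 member had the highest −log10 q of these 5, 9.20, and the Runx1 member the lowest, 3.76.

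PBS-only wide peaks were fewer but lay near more genes of 2 of these lists. Of all protein-coding genes 2.17% had one within 10 kb of a TSS. Of primary response genes 10 of 60 did (16.7%, 9.31 to 28.0%), among them Tnf, Cxcl2, Ccl4, Nfkbia and Tnfaip3, and of NF-kB and Toll-like receptor signalling genes 8 of 44 (18.2%, 9.51 to 32.0%). These counts share 4 genes, Rel, Nfkb1, Nfkbia and Tnfaip3, which are in both lists. Of late and interferon response genes 4 of 38 had a PBS-only wide peak (10.5%, 4.17 to 24.1%). The PBS-only intervals of the primary, signalling and late lists lay above the 2.17% of all genes. That of macrophage identity genes, 1 of 30 (3.33%, 0.591 to 16.7%), included it, and no list was tested. Within 10 kb, shared wide peaks also lay near more genes of the primary, signalling and late lists. They did so at 51.7, 59.1 and 63.2%, in that order, against 26.7% of all genes. The intervals of the LPS-only and PBS-only shares overlapped for every list, although the corresponding shares of all genes were 7.64% and 2.17%. At Tnf the PBS-only peak had 15 fragments at its summit and the nearest LPS peak was 2256 bp away.

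**Figure D5:**
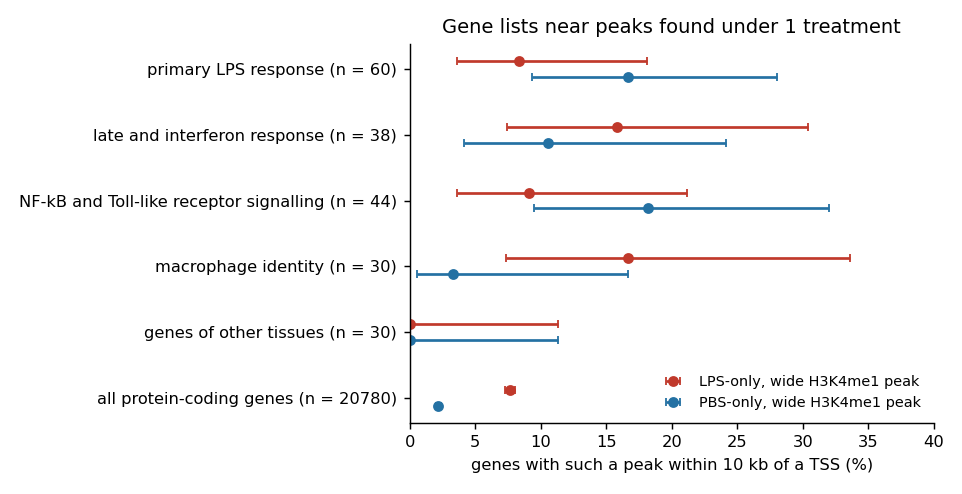
Percentage of the genes of each list with an LPS-only or PBS-only wide H3K4me1 peak within 10 kb of a TSS, with 95% Wilson intervals. Against all protein-coding genes at 7.64% and 2.17%, the primary response genes stand at 8.33% for LPS-only peaks and 16.7% for PBS-only peaks, with overlapping intervals.

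LPS-only wide peaks lay on all chromosomes from 1 to 19, and most had no other member within 5000 bp. Their number per chromosome ran from 79 on chromosome 18 to 184 on chromosome 1, and their share of wide LPS peaks from 6.69% on chromosome 2 to 9.97% on chromosome 19. Their density ran from 0.812 per Mb on chromosome 3 to 1.40 per Mb on chromosome 19. Within 5000 bp of another member lay 270 members (10.5%), in 130 runs, of which 10 held 3 members and none held more. The share that an even scatter would give was not computed, so that the 10.5% does not show whether members cluster. Runs of 3 lay at the TSS of Ing5, a chromatin reader gene, at Ttc7 and Slc31a1, the copper importer, and in gene bodies such as that of Trim14, an adaptor of antiviral signalling (chr4:46530624-46534266). These runs were picked out after values were seen. Among 20807 protein-coding genes, 1554 (7.47%) had a member in the gene body, 187 had 2 or more and 36 had 3 or more. The genes with 3 or more had a median length of 281.9 kb, against 17.63 kb for all genes. The largest numbers were 11 in Gm20388 and 6 in Fgfr2, whose annotated bodies spanned 4435 and 2961 kb, followed by 4 each in Mbnl2, Cmip, Cux1 and Camk1d.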

How the data were processed

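CUT&RUN peak lists of 4 libraries were used, with 1 library per treatment and antibody. According to the methods, the authors aligned reads to GRCm38 with Bowtie2 2.4.4, excluded blacklisted regions and called peaks per library with MACS2 2.2.7.1. The deposited fold enrichment is a ratio to local background, computed by the authors' peak caller with a pseudocount of 1. Whether the IgG libraries served as its control is not given in the sources used here, so that the source of the local background is not known. The deposited −log10 of p and of q were the authors' values at the summit. The deposited score was not used.

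The regions, gene lists and alternatives were chosen with earlier results of these data known. Positions came from GENCODE M21 basic transcripts of GRCm38, which is another release than the authors used. The nearest gene is that with the nearest protein-coding TSS. Of the listed genes 8 were not on chromosomes 1 to 19 or had no matching symbol. Shares have 95% Wilson intervals. Peaks of 1 library are not replicates. Fragments at summits were solved from fold enrichment and p, and returned p within 0.002 for at least 99.857% of peaks in each list. The regions named are the 10 highest by −log10 q, the 5 widest, the 10 under the strongest LPS H3K27ac peaks, those within 10 kb of a listed gene, of which 1 is not reported here, and those next to the limits. Other named regions were chosen after values were seen. Calculations were made with Python 3.11.15, pandas 2.3.3, numpy 2.4.6, scipy 1.17.1 and pysam 0.24.0, and were tested on simulated data. The alternatives changed the width, distance, peak threshold, merging of records, promoter, gene window and sequence window.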

Additional observations from a re-analysis of the deposited data

How the results depend on the processing

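No paired analysis was possible because each antibody had only 1 library for LPS and 1 for PBS. As reported there were 2574 LPS-only wide peaks, 8.06% of wide LPS peaks and 2.79 times as many as PBS-only wide peaks, with 27.04% at promoters, a median GC of 49.5% and 5 primary response genes nearby. A minimum width of 300 bp gave 4859 peaks (11.5%) and 9 genes, and one of 600 bp 769 peaks (3.89%), a ratio of 3.24 and 3 genes. Requiring only that no PBS peak overlapped gave 5116 peaks (16.03%), a ratio of 2.25, 22.5% at promoters, 48.8% GC and 16 genes. A distance of 5000 bp gave 1358 peaks (4.25%), a ratio of 3.21 and 3 genes. With −log10 q of at least 5 for the peaks counted there were 1668 (6.30%) and 3 genes, and with that limit in both lists 5009 (18.9%), a ratio of 2.01, 20.7% at promoters, 48.8% GC and 10 genes. After merging records within 1000 bp, 12.2% of wide LPS peaks were LPS-only, with 29.7% at promoters and 8 genes. The promoter share was 40.9% with a wider promoter window and 22.8% with protein-coding TSSs alone, and the median GC was 48.5% in a wider window around the summit. The gene count was 1 within 1 kb and 15 within 50 kb of a TSS. Of all protein-coding genes 2.95% had a member within 1 kb and 20.3% within 50 kb. The intervals of the primary response genes, 0.295 to 8.86% and 15.8 to 37.2%, included those shares. For the other settings the share of all genes was not computed, so that their gene counts are descriptions. H3K27ac overlap, 1.44% as reported, was 3.77% when peaks were extended by 1000 bp and 0.738% for H3K27ac peaks with −log10 q of at least 5. Lists of equal size, an alternative chosen after seeing the data, gave 7.70% and a ratio of 1.72. Where a setting touched the promoter share, that of LPS-only wide peaks stayed above that of shared wide peaks with intervals apart. The H3K27ac share stayed below, with intervals apart except at the stricter H3K27ac limit, where 0.738% (0.473 to 1.15%) and 1.09% (0.972 to 1.22%) overlapped. The ratio stayed above 1. The number of fragments limits the H3K4me1 lists, since a peak there needed at least 8 at its summit.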

Other observations

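The rule left out the sex chromosomes. On chromosome X, 57 of 370 wide LPS peaks had no PBS peak within 1000 bp, and 21 of 269 wide PBS peaks had no LPS peak within that distance.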
